A study of Mus musculus with 35 samples.

Results

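The genes described here are 34 mouse genes known for meiotic recombination and synapsis, out of 55356 genes in the count table. They were listed by symbol for their known roles by a rule that uses no measured value, although earlier results of these data were known when the list was made. Each symbol was tied to its ENSEMBL gene and, through the deposited map between identifiers, to the locus under which its reads were counted, and 1 such locus was found for each of the 34. By role the list held 4 meiotic cohesin subunits, 5 proteins of the chromosome axis and its checkpoint, 5 of the central region of the synaptonemal complex, 4 that make or place DNA breaks, 5 of strand exchange, 6 of crossover formation, 3 of meiotic entry and RNA control and 2 that attach telomeres to the nuclear envelope.

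Meiosis makes haploid gametes, and its long prophase is where homologous chromosomes find each other. SPO11 cuts the DNA, the recombinase DMC1 brings the broken ends to the homolog, and the synaptonemal complex, a protein zipper built on cohesin-based chromosome axes, holds the homologs together while some breaks mature into crossovers. In the adult testis new germ cells enter this prophase continuously, whereas oocytes of the adult ovary completed recombination and synapsis around birth and rest in a late stage of the same prophase.

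The samples were adult C57BL/6J mice with no genotype or treatment that differed between groups. Total RNA depleted of ribosomal RNA was sequenced from brain, cerebellum, heart and colon of females and of males, from ovary and from testis, which gave 10 groups and 29 libraries, with 3 libraries per group and 2 for male heart. Libraries held 11742417 to 36194255 counts, and the testis libraries 28459258 to 30925443. The labels do not state whether the libraries of a group came from separate animals, so p-values measure the spread between these libraries, which may be technical.

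The tissue labels were read against defining markers. The summed level of 8 spermatocyte markers, none of them among the 34 genes, was 2216 to 2305 FPKM in testis (counts per kilobase of exon and per 1000000 counts of the library) and 21.7 FPKM or less in each of the other 26 libraries. For 8 spermatid markers the testis sums were 21575 to 25924 FPKM. Of the 6 colon libraries, female colon 1, female colon 3 and male colon 3 held spermatid marker sums of 31.9, 19.6 and 15.3 FPKM against 0.854 to 3.20 FPKM in the other 3. The counts of genes called higher in testis than in colon, and higher in colon, are given with and without them. The ovary held the oocyte genes Ooep (6.43 FPKM), Zp2 (4.34 FPKM) and Nlrp5 (3.82 FPKM), each highest there, whereas Gdf9 of the same list was called lower in ovary than in somatic tissues. The sum of the 10 oocyte markers, Gdf9 included, was 41.5 to 73.8 FPKM in ovary and 127 to 241 FPKM in female heart, so it did not peak in ovary. Brain held Snap25 at 849 FPKM, cerebellum Pcp2 at 1405 FPKM, colon Krt20 at 559 FPKM and heart a marker sum of 18469 to 41395 FPKM. Female heart 3 stood apart from the other 4 heart libraries in its TMM factor (1.12 against 0.604 to 0.711).

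In testis the 34 genes spanned 0.236 to 160 FPKM with a median of 8.36 FPKM, and 32 of them reached 1 FPKM. At the same level 6 were found in brain, 7 in cerebellum, 5 in heart, 7 in colon and 8 in ovary. Testis had the highest tissue mean for 31 of the 34. The exceptions were Prdm9 (colon, 0.797 FPKM, against 0.716 FPKM in testis), Mei4 (cerebellum, 0.758 against 0.236 FPKM) and Ythdc2 (brain, 5.70 against 4.26 FPKM), and Prdm9 moved to testis when TMM library sizes replaced total counts. As a background, 28.5% of the 24678 genes that reached 1 FPKM in some tissue were highest in testis. For 28 of the 34 the lowest testis library lay above the highest of the 26 other libraries, and for 19 the testis mean was at least 10 times every other tissue mean. Over the same 24678 genes these shares were 24.4% and 13.6%.

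**Figure D1:**
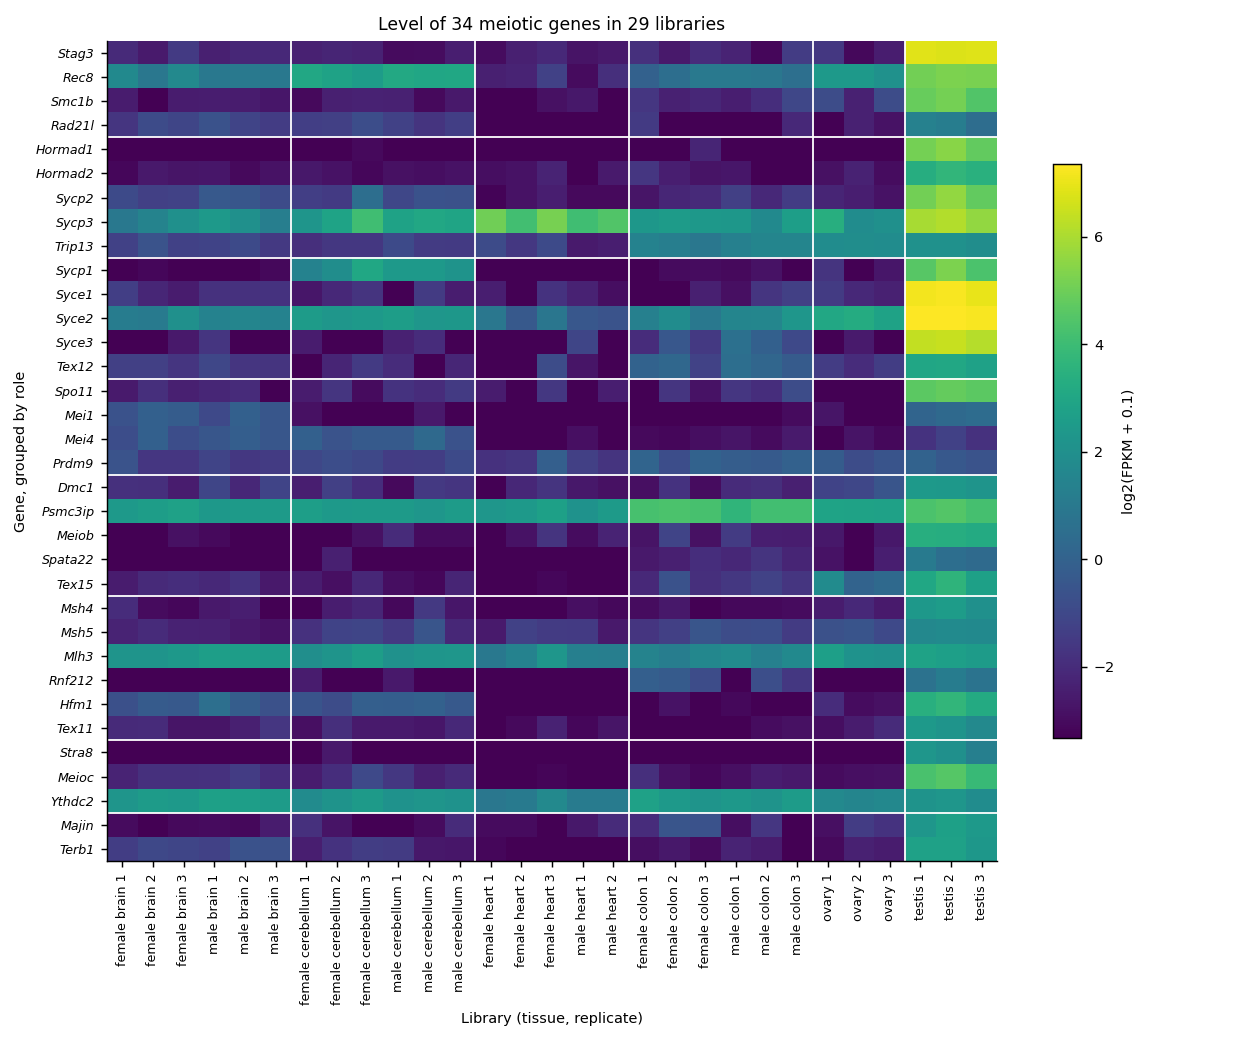
Level of each of the 34 genes (rows, grouped by role) in the 29 libraries (columns, grouped by tissue), as log2(FPKM + 0.1) by the colour scale. Light colours mark high levels and stand in the testis columns for most rows, and Mei4, Prdm9 and Ythdc2 are the 3 rows whose highest tissue mean is elsewhere.

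Tested with edgeR's quasi-likelihood test and Benjamini-Hochberg adjustment over 29911 genes, a gene being called at an adjusted p under 0.05, 33 of the 34 were called higher in testis than in the mean of the 8 somatic groups. Over all genes tested 40.7% were called higher and 26.6% lower, and none of the 34 was called lower. The median log2 difference of the 34 was 6.96, beside 0.12 over all genes tested. With levels under the floor of 3 counts per library raised to that floor, the median was 4.97 as a log2 ratio of mean FPKM. For Mei4 the call rests on averaging log levels over the groups, since its testis level lay above those of heart and colon and below those of brain and cerebellum, and it was not called with male libraries alone, though it was with the first digit of the library code added there as a block. The gene not called was Ythdc2, with a log2 difference of 0.21 ± 0.12 (SE; adjusted p = 0.113). In whole tissue, fewer cells of a type and less RNA per cell cannot be told apart.

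Taken tissue by tissue, the counts differed little. Against heart 34 were called higher in testis (42.2% of all genes tested were higher and 25.3% lower). Against colon 32 were higher and none lower (42.3% and 29.6%), and Prdm9 (0.20 ± 0.32) and Ythdc2 (0.03 ± 0.14) were not called. Without the 3 colon libraries with the higher spermatid marker sums 31 were higher, and Rnf212 was not called either. Against cerebellum 32 were higher (40.3%) and 1, Mei4, was lower (30.7%). Against brain 31 were higher (40.4%) and again Mei4 was lower (31.2%), while Mei1 (0.94 ± 0.57) and Ythdc2 (-0.21 ± 0.14) were not called. Both lower calls of Mei4 were lost, leaving 0 lower, without testis replicate 1 or testis replicate 3.

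Against ovary, where sex and the kind of gonad cannot be told apart, 34 of 34 were called higher in testis, where 37.8% of all genes tested were higher and 26.5% lower. The median log2 difference was 6.27, beside 0.15 over all genes, and 5.04 with low levels raised to the floor. The smallest differences were those of Trip13 (0.76 ± 0.29, adjusted p = 0.0222 by edgeR with Benjamini-Hochberg adjustment), Prdm9 (0.91 ± 0.38, adjusted p = 0.0382), Mlh3 (1.04 ± 0.17) and Ythdc2 (1.14 ± 0.16). Scaling by total count alone, which set the median of all genes at -0.38, left 31 called, without Mlh3, Prdm9 and Trip13, and DESeq2 called 32, without Hormad1 and Stra8. Against somatic tissues DESeq2 also did not call Stra8. With no filter on low counts Prdm9 and Trip13 were not called against ovary. Leaving out 1 library also ended the call of Prdm9 (ovary replicate 2 or 3, testis replicate 1 or 2) and of Trip13 (ovary replicate 1, testis replicate 1 or 2).

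The 3 testis libraries differed among themselves. The coefficient of variation ran from 2.26% to 33.7% with a median of 17.1%. Testis 2 was the highest of the 3 libraries for 24 of the 34 genes, and testis 3 the lowest for 26. Stag3 and Syce2 hardly moved between libraries, while Sycp1 was 23.9, 37.6 and 20.2 FPKM and Sycp2 33.5, 49.1 and 27.2 FPKM in testis 1, 2 and 3. The summed spermatocyte markers differed less, from 2216 to 2305 FPKM, and whether the mix of cells differed between the testis libraries was not tested.

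**Figure D2:**
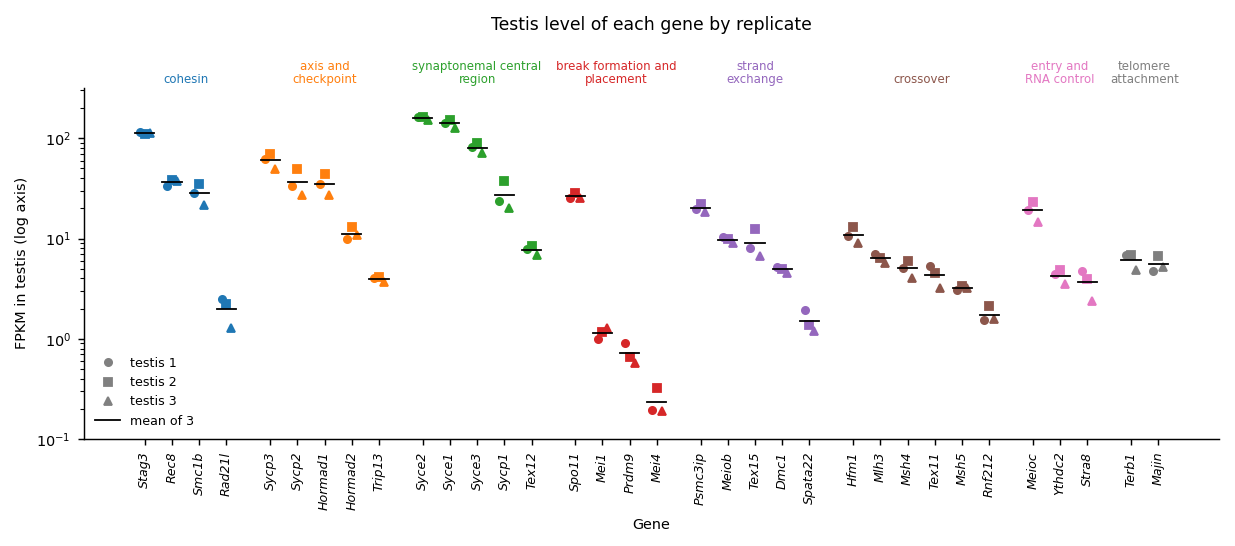
Level of each of the 34 genes in testis (FPKM, log axis), with genes grouped by role, a point for each of the 3 testis libraries by its shape and a bar at their mean. Genes of the synaptonemal complex and of cohesin lead, from Syce2 at 160 FPKM, and Mei4 at 0.236 FPKM is last.

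Promoters were read because 33 of the 34 genes were called higher in testis. The RefSeq promoter table (GRCm38.p6, 250 bases before to 50 after the start) held 28 of the 34, and Tex11, Tex15, Spo11, Meiob, Ythdc2 and Majin were not matched. Of 7 motifs searched on both strands, CACGTG, the E-box read by MGA and MAX, stood in 7 of the 28 promoters (25.0%) and in 8.09% of the 27025 genes in the table. TTCCCGC, an E2F-type site, stood in 11 (39.3%) and in 5.29% of all. The longer GGCGGGAA, which contains the reverse complement of TTCCCGC, stood in 25.0% and 2.52%. CNCCTCAG, a motif described for STRA8, stood in 25.0% and 9.12%. TGACGTCA, the cyclic AMP response element, and AACTGCC were in 0 of the 28 promoters (2.03% and 4.76% of all), and CAGTTG was in 1, that of Syce3 (15.4% of all).

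CACGTG and TTCCCGC stood together in 6 promoters, those of Hormad1, Rnf212, Stag3, Syce2, Sycp3 and Tex12, and in 0.514% of all genes. The promoters of the 28 were richer in CpG, with a median of 19.5 CpG beside 8 over all genes. Among promoters with 15 or more CpG, which 22 of the 28 had, both motifs stood together in 6 of 22 and in 1.17% of 10038 genes, TTCCCGC in 11 of 22 and 11.1%, and CACGTG in 7 of 22 and 12.0%. These are matches of letters, and no binding was measured.

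Of these 6, the promoters of a cohesin subunit, an axis protein and a central element protein with high testis levels are printed 5′ to 3′ on the coding strand, with CACGTG and TTCCCGC or its reverse complement in capitals. They are Stag3 (chr5:138280259-138280558, plus strand, CACGTG from base -170 and the E2F-type site from -3 of the start), Hormad1 (chr3:95559427-95559726, plus strand, -57 for the first of 2 CACGTG and -95 for the E2F-type site) and Syce2 (chr8:84872008-84872307, plus strand, -88 and -34).
Stag3: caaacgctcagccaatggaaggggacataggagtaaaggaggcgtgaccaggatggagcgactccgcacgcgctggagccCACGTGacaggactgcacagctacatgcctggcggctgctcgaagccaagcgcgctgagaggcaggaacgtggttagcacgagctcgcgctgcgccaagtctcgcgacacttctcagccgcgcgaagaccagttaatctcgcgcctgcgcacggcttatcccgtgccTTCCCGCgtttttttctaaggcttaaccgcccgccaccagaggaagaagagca
Hormad1: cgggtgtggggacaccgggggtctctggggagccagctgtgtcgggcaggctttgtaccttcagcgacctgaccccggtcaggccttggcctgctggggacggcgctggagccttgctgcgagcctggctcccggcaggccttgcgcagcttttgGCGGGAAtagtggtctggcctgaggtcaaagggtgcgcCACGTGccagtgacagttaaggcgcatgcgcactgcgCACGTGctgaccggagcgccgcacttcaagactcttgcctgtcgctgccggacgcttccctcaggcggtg
Syce2: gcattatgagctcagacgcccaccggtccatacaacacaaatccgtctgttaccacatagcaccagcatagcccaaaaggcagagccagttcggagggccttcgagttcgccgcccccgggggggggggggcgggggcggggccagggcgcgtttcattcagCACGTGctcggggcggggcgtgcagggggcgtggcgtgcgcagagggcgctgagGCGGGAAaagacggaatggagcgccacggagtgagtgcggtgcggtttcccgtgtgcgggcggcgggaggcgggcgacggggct

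Among cohesin genes, Stag3, which encodes the meiotic STAG subunit, was 116, 111 and 112 FPKM in testis 1, 2 and 3, and no other library passed 0.278 FPKM. The testis libraries had a coefficient of variation of 2.26% and lay far above all others, with a log2 difference from the somatic groups of 10.36 ± 0.23. Smc1b, the meiotic SMC1, was 28.8, 34.8 and 21.7 FPKM in testis and 0.335 ± 0.208 (SD, n = 3) in ovary, its highest other tissue. Rec8, the meiotic kleisin, was 33.5, 38.2 and 37.1 FPKM in testis and was not restricted to it, since cerebellum held 7.58 ± 1.03 FPKM (n = 6) and ovary 4.88 ± 0.683 (n = 3). Rad21l, a further meiotic kleisin, was far lower, at 2.50, 2.20 and 1.29 FPKM in testis.

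Each meiotic subunit has a mitotic relative, and their levels were set side by side within libraries as ratios of FPKM. In testis the ratio of Smc1b to Smc1a was 6.28 ± 1.61 (SD, n = 3), that of Stag3 to Stag1 8.47 ± 0.562, that of Stag3 to Stag2 9.48 ± 0.569, and that of Rec8 to Rad21 1.40 ± 0.175. The ratio of Rad21l to Rad21 was 0.0761 ± 0.0195, so this kleisin stayed under its counterpart in testis too. In the other tissues the mean ratios of Smc1b to Smc1a were at most 0.0147 (ovary), and of Rec8 to Rad21 at most 0.135 (cerebellum).

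Of the 8 mitotic cohesin genes tested, 5 were called lower in testis than in somatic tissues, Smc1a (-1.44 ± 0.12), Stag2 (-0.68 ± 0.22), Rad21 (-0.61 ± 0.10), Stag1 (-0.40 ± 0.13) and Pds5a (-0.39 ± 0.13), and 2 higher, the release factor Wapl (0.89 ± 0.14) and Smc3 (0.39 ± 0.17), while Pds5b (-0.27 ± 0.13) was not called. The median of the 8 was -0.40, beside 0.12 over all genes. Calls of the smaller differences depended on the scaling: Stag1 and Pds5a were not called under DESeq2-type size factors (RLE), and under total counts Smc3 was not called and Pds5b was. Over all genes tested 26.6% were lower and 40.7% higher. Against ovary 5 were lower (Smc1a, Stag2, Pds5a, Pds5b and Rad21) and none higher, beside 26.5% and 37.8% of all genes. Nipbl was counted at 2 loci and not used.

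**Figure D3:**
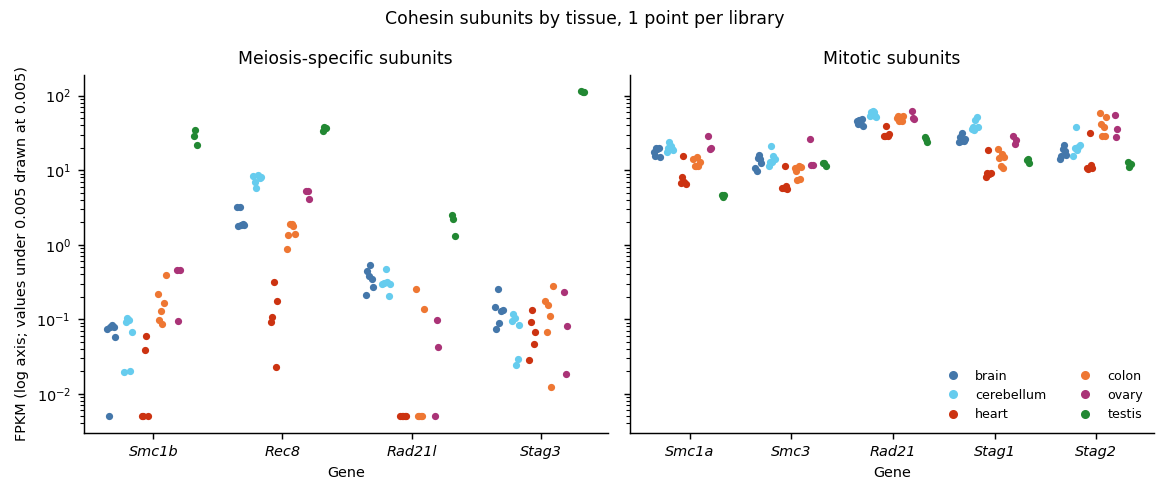
Level of 4 meiotic (left) and 5 mitotic (right) cohesin genes (FPKM, log axis), with a point per library coloured by tissue and values under 0.005 drawn at 0.005. The testis points of Smc1b, Rec8, Rad21l and Stag3 lie above those of every other tissue, and those of Smc1a lie below.

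Of the axis genes, Hormad1, which encodes a HORMA protein of unsynapsed axes, was nearly absent outside testis. It was 34.9, 43.9 and 27.3 FPKM in testis, while 24 of the 26 other libraries held 0 counts and the other 2 held 4 counts in all. Testis was at least 368-fold higher than ovary and at least 497-fold higher than brain. Its relative Hormad2 was 9.99, 12.9 and 10.8 FPKM in testis and at most 0.0686 FPKM in any other tissue mean. Sycp2, a lateral element protein, was 36.6 ± 11.3 FPKM (SD, n = 3) in testis, and 0.560 ± 0.407 FPKM in cerebellum was its highest other mean. That rank rests on female cerebellum 3, at 1.36 FPKM against 0.257 to 0.539 FPKM in the other cerebellum libraries and 0.306 to 0.686 FPKM in brain.

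Sycp3, the other lateral element protein, had levels outside the testis that go with those of a neighbour. It was 62.6, 69.8 and 49.9 FPKM in testis, 25.0 ± 8.84 FPKM (SD, n = 5) in heart and 3.35 to 8.52 FPKM in the remaining tissue means. Its counted model (chr10:88459664-88473235 of mm10, plus strand) shares 436 exonic bases, 41.8% of the model, with Chpt1 on the opposite strand, an enzyme of phosphatidylcholine synthesis named here for its position. The ratio of Sycp3 to Chpt1 was 0.262 to 0.699 in the 26 libraries outside testis and 3.56 to 4.48 in testis. Chpt1 was itself highest in heart, at 50.2 FPKM, against 14.8 FPKM in testis. Whether the counting used strand is not stated, so reads of Sycp3 and Chpt1 outside testis cannot be told apart.

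Trip13, the ATPase that removes HORMA proteins from axes and also acts in the mitotic spindle checkpoint, was 4.07, 4.09 and 3.65 FPKM in testis, 3.51, 3.72 and 3.60 FPKM in ovary and 2.43 ± 0.397 FPKM (n = 6) in colon. On the FPKM scale the lowest testis library lay under the highest ovary library, so the groups overlapped, and the means of brain, cerebellum and heart were 0.367 FPKM or less. It was called higher in ovary than in somatic tissues by 2.54 ± 0.19 on the log2 scale.

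By role the central region genes had the highest median testis mean, 81.0 FPKM over 5 genes that spanned 7.68 to 160 FPKM. Syce2, a central element protein, was 162, 164 and 153 FPKM in testis, 8.24 ± 1.24 FPKM (n = 3) in ovary and 1.09 to 5.29 FPKM in somatic tissues. Syce1, its partner in the central element, was 144, 154 and 128 FPKM in testis and at most 0.176 FPKM in any other tissue mean. Although their testis levels were alike, Syce2 was thus found in all 6 tissues at 1 FPKM and Syce1 in testis alone.

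Syce3 was 82.7, 89.1 and 71.1 FPKM in testis and 0.624 ± 0.475 FPKM (n = 6) in colon, its next tissue. Tex12, which forms a filament with SYCE2, was 7.89, 8.34 and 6.82 FPKM in testis, under the other central element genes, and 0.915 ± 0.350 FPKM in colon. Sycp1, the transverse filament, was 27.2 ± 9.16 FPKM in testis and also 4.87 ± 1.89 FPKM (n = 6) in cerebellum, with 2.54, 3.62 and 8.07 FPKM in the female and 5.27, 5.38 and 4.37 FPKM in the male libraries. Every cerebellum library stood above the other 20 libraries outside testis, which held at most 0.201 FPKM. Cerebellum was called higher than the other somatic tissues by 9.35 ± 0.39 on the log2 scale, and testis was at least 441-fold higher than heart, where Sycp1 had 0 counts.

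The genes of break formation lay at different levels. Spo11, the enzyme that cuts, was 25.2, 28.2 and 25.4 FPKM in testis and had 0 counts in the 3 ovary libraries, so that testis was at least 259-fold higher. Somatic means of Spo11 were 0.0786 to 0.184 FPKM. Mei1, needed for breaks to form, was 0.985, 1.16 and 1.28 FPKM in testis and 0.680 ± 0.182 FPKM (n = 6) in brain, with 0 counts in the 5 heart libraries. Male brain 2 (0.870 FPKM) was the highest brain library and lay below the lowest testis library.

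Mei4, which also acts in break formation, was lowest of the list in testis, at 0.196, 0.322 and 0.189 FPKM, and was higher in brain (0.644 ± 0.161 FPKM) and cerebellum (0.758 ± 0.227 FPKM), whose libraries all lay above the testis ones. Prdm9, the histone methyltransferase that places breaks, was 0.914, 0.661 and 0.574 FPKM in testis, 0.797 ± 0.184 FPKM in colon and 0.598 ± 0.152 FPKM in ovary, and these 3 tissues overlapped. Its means were 0.308 FPKM in brain and 0.371 FPKM in cerebellum. In heart female heart 3 held 0.831 FPKM, within the testis range, and the other 4 libraries 0.191 to 0.308 FPKM.

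Among strand exchange genes, Dmc1, the meiotic recombinase, was 5.22, 5.01 and 4.51 FPKM in testis and 0.440 ± 0.139 FPKM in ovary, its highest other tissue. Meiob and Spata22, which form a single-strand DNA binding complex, were 9.76 ± 0.619 and 1.51 ± 0.398 FPKM in testis and at most 0.146 FPKM in any other tissue mean. For Spata22, 80.5% of the counted model is shared on the same strand with Gm49340, which held 0 counts in every library and is named for its position. How reads in these 1025 shared bases were counted is not stated, so the FPKM of Spata22 may be understated.

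Tex15, known for break repair in spermatocytes, was 8.10, 12.4 and 6.65 FPKM in testis. In ovary it was 3.49, 0.953 and 1.15 FPKM, below every testis library and above the 23 somatic libraries, which held at most 0.537 FPKM. Psmc3ip (HOP2), a cofactor of DMC1, was 19.7, 22.3 and 18.3 FPKM in testis and 17.5 ± 2.59 FPKM (n = 6) in colon, and its testis and colon libraries overlapped. Its counted model (chr11:101090409-101095436 of mm10, minus strand) shares 1096 exonic bases, 40.5%, with Mlx on the opposite strand, a transcription factor gene named for its position. The ratio of Psmc3ip to Mlx was 0.331 to 0.486 in the 26 libraries outside testis and 3.22 to 4.90 in testis. Mlx was highest in colon, at 48.3 FPKM, against 5.32 FPKM in testis, so levels of Psmc3ip outside testis carry the same limit as those of Sycp3.

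**Figure D4:**
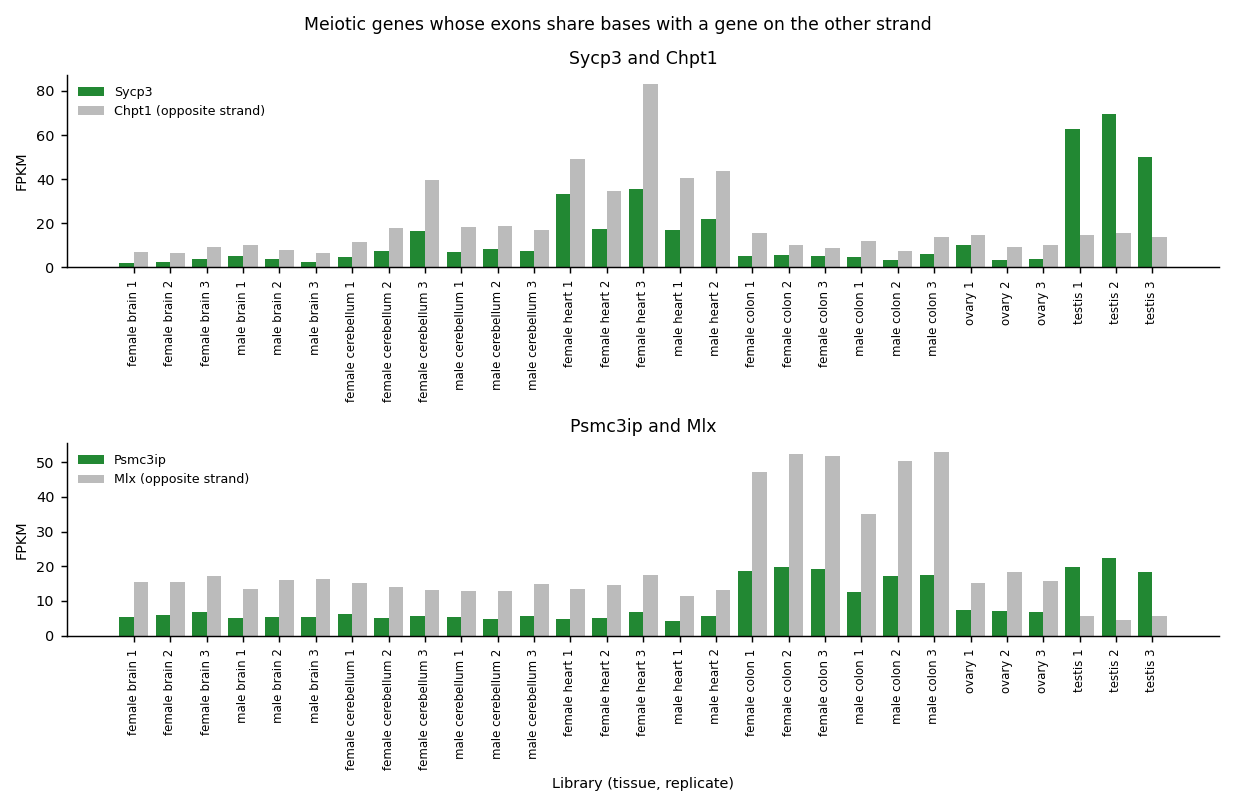
Level of Sycp3 with Chpt1 (top) and of Psmc3ip with Mlx (bottom) in FPKM, as a pair of bars for each of the 29 libraries. Outside testis the green bars are the shorter of each pair, with ratios of 0.262 to 0.699 and 0.331 to 0.486, and in testis they are the taller, at 3.56 to 4.48 and 3.22 to 4.90.

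The crossover genes were moderate in testis, with means of 1.74 to 10.9 FPKM. Hfm1, a helicase, was 10.6, 12.9 and 9.11 FPKM in testis and was also found in brain (0.771 ± 0.316 FPKM) and cerebellum (0.711 ± 0.168 FPKM), with 0 counts in heart, so that testis was at least 199-fold higher than heart. Msh4 and Msh5, the subunits of the MutS homolog that stabilises crossover intermediates, were 5.05 ± 0.960 and 3.22 ± 0.122 FPKM in testis. Msh4 was at most 0.0938 FPKM in any other tissue mean, and Msh5 reached 0.506 FPKM in ovary.

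Tex11, an X-linked gene of the same pathway, was 5.38, 4.54 and 3.19 FPKM in testis and at most 0.118 FPKM in any other tissue mean. Rnf212, a ligase that marks future crossovers, was 1.54, 2.12 and 1.58 FPKM in testis, had 0 counts in ovary, brain and heart, and was 0 to 0.827 FPKM in the colon libraries. Mlh3, which resolves crossovers and also acts in mismatch repair, was found everywhere, at 6.95, 6.35 and 5.75 FPKM in testis and 2.78 to 5.36 FPKM in the other tissue means, and its testis libraries overlapped those of ovary, brain and cerebellum.

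Of the genes of meiotic entry, Stra8, the retinoic acid target that starts meiosis, was 4.79, 3.96 and 2.36 FPKM in testis and held 3 counts in all elsewhere, in 1 of the 26 libraries. Testis was at least 40.2-fold higher than ovary and at least 26.2-fold higher than colon. Meioc, which keeps the meiotic program running, was 19.3, 23.3 and 14.7 FPKM in testis and at most 0.187 FPKM in any other tissue mean. Ythdc2, its RNA helicase partner, was 4.43, 4.82 and 3.53 FPKM in testis against 5.70 ± 0.734 FPKM in brain, 5.31 ± 0.916 FPKM in colon, 4.43 ± 0.689 FPKM in cerebellum, 3.0 ± 0.202 FPKM in ovary and 2.21 ± 0.554 FPKM in heart. Its call against somatic tissues depended on the processing, for under RLE factors it was called higher by 0.34 and without testis replicate 3 by 0.33. It was also called with male libraries alone, by 0.27, and by 0.28 when that fit also held a block by library code.

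Of the telomere genes, Terb1 was 6.79, 6.85 and 4.91 FPKM in testis and 0.407 ± 0.108 FPKM in brain, its next tissue, and Majin was 4.73, 6.70 and 5.25 FPKM in testis and 0.260 ± 0.256 FPKM in colon. Both were called higher in testis, by 6.97 ± 0.32 and 6.58 ± 0.43 on the log2 scale against somatic tissues.

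Outside the testis the question was which of the genes the adult ovary held above somatic tissue. Against the somatic groups 6 of the 34 were called higher in ovary, where 24% of all genes tested were higher, and 5 lower, where 19% were lower. The higher ones were Tex15 (4.68 ± 0.38), Trip13 (2.54 ± 0.19), Smc1b (1.96 ± 0.45), Rec8 (1.37 ± 0.19), Dmc1 (1.29 ± 0.44) and Syce2 (1.24 ± 0.20). The lower ones were Spo11 (0 counts in ovary), Sycp2 (-1.71 ± 0.49), Ythdc2 (-0.93 ± 0.13), Sycp3 (-0.89 ± 0.32) and Psmc3ip (-0.53 ± 0.13). The calls of Sycp3 and Psmc3ip carry the limit of exonic bases shared with Chpt1 and Mlx. Without ovary replicate 3, 3 were lower, without Sycp2 and Sycp3, and Dmc1 was not called. The call of Sycp3 was also lost without ovary replicate 2, with total counts and with female libraries alone, that of Psmc3ip with total counts, that of Dmc1 with female libraries alone, and that of Spo11 without male heart replicate 2. All 12 proliferation genes were also called higher in ovary, and their part in these calls was not tested. The testis mean in FPKM, scaled by total counts, was 1.09-fold that of ovary for Trip13, 4.85-fold for Tex15, 11.2-fold for Dmc1, 19.4-fold for Syce2 and 85.0-fold for Smc1b. In the same order the fit with TMM factors gave 1.70, 7.84, 17.0, 30.1 and 134-fold. The ovary mean of Tex15 rested largely on ovary 1, at 3.49 FPKM against 0.953 and 1.15 FPKM in ovary 2 and 3.

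In colon 13 of the 34 were called higher than in the other somatic tissues (30.6% of all genes tested) and 3 lower (31.6%), or 6 lower by DESeq2. The largest were Rnf212 (5.92 ± 0.78), Spata22 (4.38 ± 0.74), Syce3 (3.45 ± 0.62), Tex15 (3.07 ± 0.50), Trip13 (3.01 ± 0.17) and Tex12 (2.65 ± 0.45), followed by Meiob, Majin, Smc1b, Psmc3ip, Prdm9, Msh5 and Ythdc2. Lower were Tex11 (-3.87 ± 0.96), Sycp3 (-1.04 ± 0.25) and Mlh3 (-0.75 ± 0.11). In FPKM most of these were low levels, and Psmc3ip, Ythdc2 and Trip13 alone of the 13 reached 1 FPKM in colon. Here too Psmc3ip and Sycp3 carry the limit of bases shared with Mlx and Chpt1. Without the 3 colon libraries with the higher spermatid marker sums, 9 remained called higher, and Msh5, Prdm9, Smc1b and Ythdc2 were not called. All 12 proliferation genes were called higher in colon as well, and their part in these calls was not tested.

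Brain and cerebellum were each set against the other somatic tissues, and the shares of the 34 called higher were close to those of all genes. In brain 12 were called higher (34.9% of all genes tested) and 5 lower (21%), or 9 lower by DESeq2. Mei1 (7.23 ± 0.60), Hfm1 (4.97 ± 0.37), Terb1 (3.79 ± 0.41), Mei4 (3.69 ± 0.34) and Rad21l (3.36 ± 0.59) led. In cerebellum 11 were higher (32.3%) and 2 lower (19.5%), led by Sycp1 (9.35 ± 0.39), Hfm1 (4.65 ± 0.39), Mei4 (3.81 ± 0.34) and Rec8 (3.07 ± 0.16). Of the genes called higher in cerebellum, Sycp1, Rec8 and Syce2 reached 1 FPKM there.

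In heart 1 gene was called higher (23.6% of all genes tested), Sycp3 with 2.72 ± 0.22, where Chpt1 is also highest, and 12 were lower (29.5%). DESeq2 called 2 higher, as did edgeR without female brain 3, female cerebellum 3 or female colon 2. Without female heart 3, which stood apart, 1 was higher and 14 lower. Heart had 0 counts in all 5 libraries for Hormad1, Stra8, Sycp1, Hfm1, Mei1, Rad21l, Rnf212 and Spata22. Between male and female somatic tissues none of the 34 was called in either direction by edgeR (0.0301% of all genes tested were higher in males and 0.0736% lower), 2 were under an unadjusted p of 0.05, and DESeq2 also called 0.

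**Figure D5:**
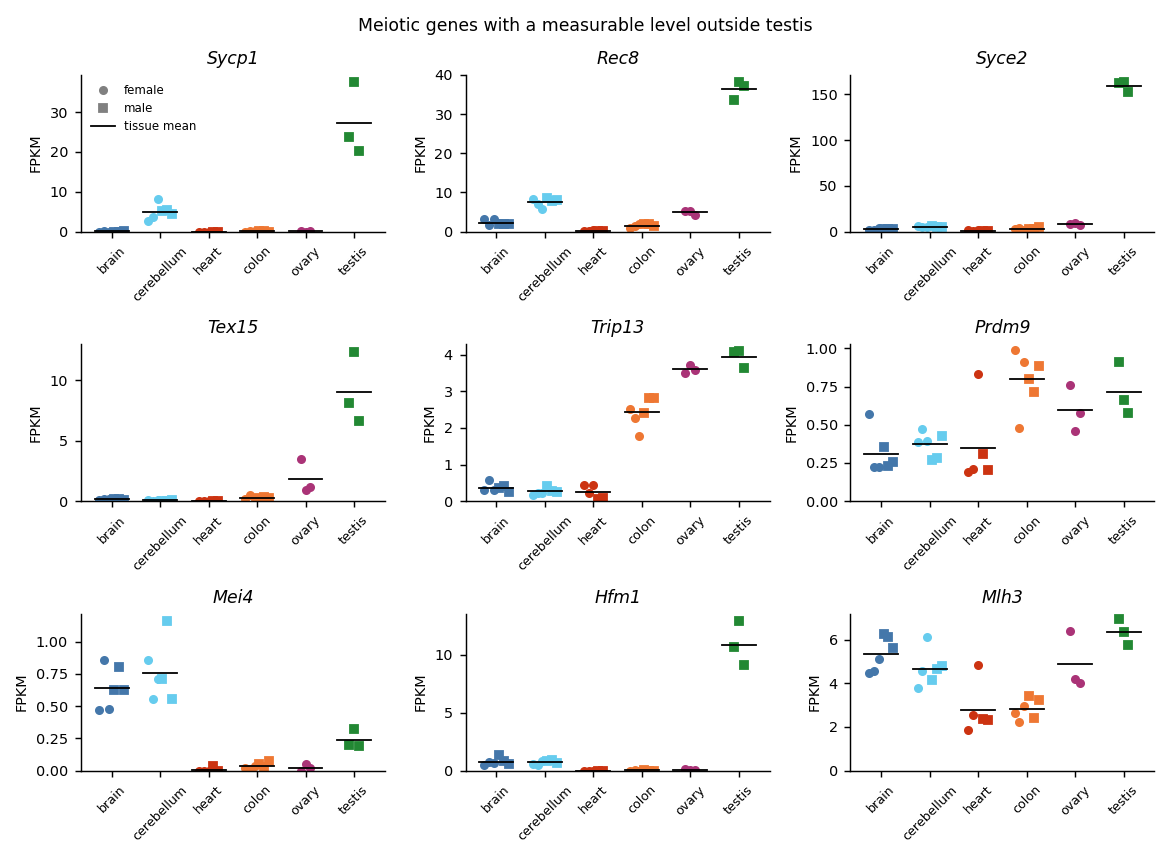
Level (FPKM) of 9 of the 34 genes in the 6 tissues, with a point per library (circles female, squares male) and a bar at the tissue mean. Sycp1 stands out in cerebellum, Tex15 in ovary and Trip13 in ovary and colon, and Mei4 is higher in brain (0.644 FPKM) and cerebellum (0.758 FPKM) than in testis (0.236 FPKM).

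Other genes of the pathway were read from lists of known genes. Of 39 further meiotic prophase genes tested, 34 were called higher in testis than in somatic tissues and 3 lower (Cpeb1, Helb and Sfr1), with a median of 4.16, beside the 40.7% and 26.6% of all genes. The most abundant in testis were Mael (12.85 ± 0.26) and Ddx4 (9.78 ± 0.18), which act in germ cell RNA control, Hspa2 (5.61 ± 0.09), a chaperone of spermatocytes, and Swi5 (0.82 ± 0.13), a recombination cofactor. Of 25 genes of general homologous recombination, 19 were higher and 4 lower, with a median of 1.20, among them Slx4 (3.71 ± 0.08), Rpa1 (1.77 ± 0.12), Msh6 (0.98 ± 0.09) and Nbn (0.52 ± 0.12). All 12 proliferation genes were higher, with a median of 4.17.

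Against ovary 33 of the 39 meiotic genes were higher in testis and 3 lower, and of the 25 recombination genes 12 were higher and 6 lower, beside 37.8% higher and 26.5% lower over all genes tested. In ovary against somatic tissues these lists gave 14 higher and 7 lower, and 15 higher and 1 lower, beside 24% and 19% over all genes. The medians of log2 differences between testis and ovary were 6.27 for the 34 genes, 3.17 for the further meiotic genes and 0.34 for general recombination, beside 0.15 over all genes.

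What the counted models covered differed between members. For 19 of the 34 the reads were counted on Iso-seq models from long reads of gonads and of pooled somatic tissues, and for 15 on ENSEMBL models. The Iso-seq models covered a median of 71.0% of the exonic bases of GENCODE M21, with 32.9% for Tex15 as the lowest and 5 under 50%. Of the bases of the counted model, 47.7% lay in GENCODE exons of the gene for Psmc3ip and at least 90.7% for every other member. Levels and calls of Psmc3ip carry this limit. The genes with Iso-seq models had a median testis level of 20.1 FPKM and those without 4.37 FPKM. Each gene was counted on the same model in all libraries.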

How the data were processed

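RNA-seq of 29 libraries in 10 groups was used through the deposited table of raw counts per gene, and 6 Iso-seq flow cells only through the deposited annotation. The counts deposited by the authors came from uniquely mapped reads on mm10. The submitters' processing notes name FastQC 0.11.8, MultiQC 0.9, HISAT2 2.0.5 and featureCounts 1.6.3, and whether reads were counted by strand is not given in the sources used here.

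Genes were tested with edgeR 4.0.16 in R 4.3.3 (filterByExpr, TMM, quasi-likelihood F test on all 10 groups without a block, Benjamini-Hochberg adjustment over 29911 genes, threshold 0.05). Levels are FPKM from the counts, the library total and the union of exons of the deposited annotation, and means over libraries carry the SD. Bounds against tissues with no counts use a floor of 3 counts per library and cover counting error only. Alternatives were RLE or no scaling, DESeq2 1.42.0, no filter, a replicate block, sexes alone, the contrast's own groups and each library left out. Several analyses were chosen after seeing the data. They were the fit with 3 colon libraries left out, the contrasts of brain, cerebellum and heart with the other somatic tissues, and those of testis with each somatic tissue. Scripts were tested on simulated data. All 34 genes passed the filter and are named, as are all mitotic cohesin genes, and of other lists at most 4 genes with the highest testis level. The genes and lists were chosen with earlier results of these data known. Promoter sequences are from RefSeq (GRCm38.p6). A ratio that involved an item withheld from this text is not reported here.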

Additional observations from a re-analysis of the deposited data

Results flagged for a closer look

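Among the tissue sets of 5 or 6 libraries of the genes that had a measurable level there, 25 were tested for 1 library standing far from the rest, and 3 did, where chance gives about 1 in 20. Sycp3 was 16.7 FPKM in female cerebellum 3, against 8.26 FPKM in the next of the 6 cerebellum libraries, and Chpt1, which shares exonic bases with it, was also highest there among cerebellum libraries, at 39.8 FPKM. Mlh3 was 4.85 FPKM in female heart 3, against 2.54 FPKM in the next of the 5 heart libraries. Ythdc2 was 3.18 FPKM in female heart 3, against 2.08 FPKM in the next. Female heart 3 was also the heart library with the TMM factor farthest from the others (1.12 against 0.604 to 0.711), and the part of the library in these values was not tested.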

How the results depend on the processing

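The labels do not say that the replicate numbers pair the libraries, and over 126 pairs with the same number the correlation of deviations ran from -0.259 to 0.155, and 5 were over 0.1. With the replicate number as a block the counts were those of the fit without it, 33 higher in testis than in somatic tissues, 34 higher than in ovary, 6 higher and 5 lower in ovary, 13 higher and 3 lower in colon, and 0 between the sexes. The labels also give library codes whose meaning is not stated, and male libraries alone with the first digit of the code as a block gave 34 higher in testis than in somatic tissues. DESeq2 gave 6 lower in colon, 9 lower in brain and 2 higher in heart. Total counts gave 3 lower in ovary and 2 lower in testis than in brain, and female libraries alone, in which 25 of the genes were tested, gave 3 lower in ovary. Leaving out 1 library gave 33 to 34 higher in testis than in somatic tissues, 32 to 34 against ovary, 5 to 7 higher and 3 to 5 lower in ovary, 12 to 13 higher and 3 lower in colon, 12 to 13 higher and 4 to 7 lower in brain, 10 to 12 higher and 2 to 3 lower in cerebellum, and 1 to 2 higher and 11 to 15 lower in heart. Against brain and cerebellum it gave 0 to 1 lower in testis. The extra heart call came without female brain 3, female cerebellum 3 or female colon 2. The median log2 difference of all genes moved with the scaling, to 0.24 (testis against somatic tissues) and 0.32 (against ovary) under RLE factors, and under total counts to -0.05 and -0.38, with 0.39 for ovary against somatic tissues. The cause of these changes was not tested. Single genes were followed in the comparisons of testis with somatic tissues or ovary, of ovary and colon with somatic tissues and of the sexes. In 6115 results of alternatives the gene stayed called or stayed not called, 34 lost the call and 17 gained it. None that was called in either fit changed sign, and signs were not compared where neither fit called the gene. Levels in FPKM of a few counts are limited by depth.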
